A study of Mus musculus with 4 samples.

Results

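Cytosolic ribosomal protein genes encode the proteins of the ribosome that works in the cytoplasm, as opposed to the one inside mitochondria. They were picked from the deposited gene symbols by name, that is Rpl or Rps with a number and a short suffix, Rplp0, Rplp1, Rplp2 and Rpsa. This gave 87 genes of 55453, with 33 named for the small subunit (40S) and 54 for the large subunit (60S). The name rule also takes in 4 entries that the annotation calls pseudogenes (Rpl6l, Rpl32l, Rps12l1 and Rps4l). It leaves out Fau, Rps3a1 and Rack1, among others, which also encode ribosomal proteins and are described at the end.

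The study sequenced poly(A)-selected RNA of mouse oocytes in the germinal vesicle stage, at which meiosis is arrested in prophase. There were 2 control libraries, with the genotype given as WT, and 2 libraries with Parp12 knocked down, a gene of the PARP family of ADP-ribose transferases. Oocytes of both groups were separated directly from the ovary. The sources used here do not give the strain, the age, the number of oocytes or the means of knockdown. The library totals lay between 35805122 and 45230773 counts. Parp12 itself had 14279 and 9419 counts in control oocytes and 32 and 86 after knockdown, so the labels and the targeted gene pointed the same way in all 4 libraries. It was the only gene called among 15868 tested (log2 fold change -7.51, quasi-likelihood test of edgeR, adjusted p 1.27e-07). All 15 oocyte markers had counts in every library. Of 30 markers of granulosa, theca, stromal, endothelial and blood cells, 19 had a count in some library and 7 in every library. The other 11 were at 0 in all 4, among them Amh, Foxl2 and Col3a1. The latter list summed to between 508.8 and 593.6 CPM (counts per 1000000 counts of the library), with the control and knockdown libraries overlapping. Of its 9 tested genes, 0 were called. The one with the smallest p, Cyp11a1, an enzyme of steroid synthesis, had 70 counts in each control and 11 and 5 after knockdown. Its adjusted p was 0.835 by edgeR. In such bulk samples, fewer cells of a type and less RNA per cell cannot be told apart.

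A ribosome needs 1 copy of nearly every one of these proteins, so their genes are usually expressed together. Their messenger RNAs typically begin with a run of pyrimidines called a 5′ terminal oligopyrimidine (TOP) tract, through which the kinase mTOR and the RNA-binding protein LARP1 set how much of them is translated. A growing oocyte makes and stores ribosomes for the embryo. The poly(A) tails of stored messages vary in length, and poly(A) selection reads only messages with a tail long enough to be caught.

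The start sites of several members are shown because the pyrimidine run is typical of the family and was not used by the name rule. Each line is 30 bases of the GRCm38.p6 RefSeq promoter table, 15 before and 15 from the annotated start, 5′ to 3′ on the gene's strand. Capitals mark a run of at least 5 C or T, counted from a C within 5 bases of the start. Any C or T directly before that C was not counted and stays in lower case, as in Rpl7a and Rpl35. The unbroken pyrimidines can therefore open further upstream than the capitals. All lines but the last hold such a run, which was found for only 46.9% of the members matched to the promoter table.
Rpl15 at chr14:18270972-18271001, minus strand: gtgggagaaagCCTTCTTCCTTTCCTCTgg
Rpl27a at chr7:109519180-109519209, plus strand: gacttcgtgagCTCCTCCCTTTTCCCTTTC
Rpl35 at chr2:39005117-39005146, minus strand: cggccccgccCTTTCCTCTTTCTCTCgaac
Rpl7a at chr2:26910792-26910821, plus strand: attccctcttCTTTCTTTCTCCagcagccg
Rplp2 at chr7:141447636-141447665, plus strand: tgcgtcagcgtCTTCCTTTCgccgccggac
Rps6 at chr4:86857353-86857382, minus strand: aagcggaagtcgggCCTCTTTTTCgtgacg
Rps15a at chr7:118116133-118116162, minus strand: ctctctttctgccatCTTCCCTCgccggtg
Rpl37 at chr15:5116598-5116627, plus strand: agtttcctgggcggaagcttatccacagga

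Of 64 members matched to the promoter table, 30 (46.9%) had such a run at 1 or more annotated starts, beside 5718 of all 27025 genes in it (21.2%). A run of 8 or more was found for 22 members (34.4%) and for 1398 of all genes (5.2%). The search covered the gene's own strand, and a gene counted once however many starts it had. Rpl37, in the last line, holds none in this window, which says only that these letters are not at this annotated position. Among tested members, the median log2 fold change was -0.03 for the 29 with a run. For the 31 without one it was 0.05 (0.045 before rounding), a description with no test.

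The ribosomal protein genes took a small and even share of each library's counts. Together they held 0.801% and 0.826% of all counts in control oocytes, and 0.798% and 0.842% after knockdown. The knockdown libraries thus enclosed both controls. Small subunit members held 0.277% and 0.288% in control oocytes and 0.279% and 0.302% after knockdown. Large subunit members held 0.524% and 0.539% against 0.520% and 0.540%. The ratio of large to small subunit counts was 1.90 and 1.87 in control oocytes and 1.86 and 1.79 after knockdown. Both knockdown ratios lay below both control ratios, and the nearest pair across groups was closer than the replicates of either group.

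Levels of different genes are compared here as CPM per kilobase of the exon length in the deposited table. The most abundant members were Rpl17, Rplp1, Rpl7a, Rpl4 and Rpl41, all of the large subunit. Rpl17, which lines the tunnel through which the new protein leaves, had 346.7 ± 25.5 CPM per kb (SD, n = 4 libraries). Rplp1, an acidic protein of the stalk, followed with 313.2 ± 25.6, and the ranges of these 2 overlapped. Rpl7a had 219.1 ± 3.90, Rpl4 had 216.1 ± 6.40 and Rpl41 had 201.7 ± 9.32 CPM per kb. The range of Rpl4 overlapped those of Rpl7a and Rpl41. Rpl7a, at most 224.6, lay apart from Rplp1, at least 291.5. The highest small subunit member on this length was Rps4x, an X-linked protein of the 40S body, at 180.4 ± 8.53. Per principal transcript Rps12 was above it, at 410.8 against 301.7 CPM per kb, and was among the 5 highest members. The median over all 87 was 39.3 CPM per kb.

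By CPM without length, Rpl17 ranked 324th, Rpl4 358th and Rpl7a 418th among all genes. The order depends on the length used. The exon length in the table is summed over all annotated transcripts, and for Rps15a it was 6270 nucleotides where its principal transcript has 640. Of the 10 highest members per exon length, 8 were also among the 10 highest per principal transcript and 5 among the 10 highest by CPM alone.

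**Figure D1:**
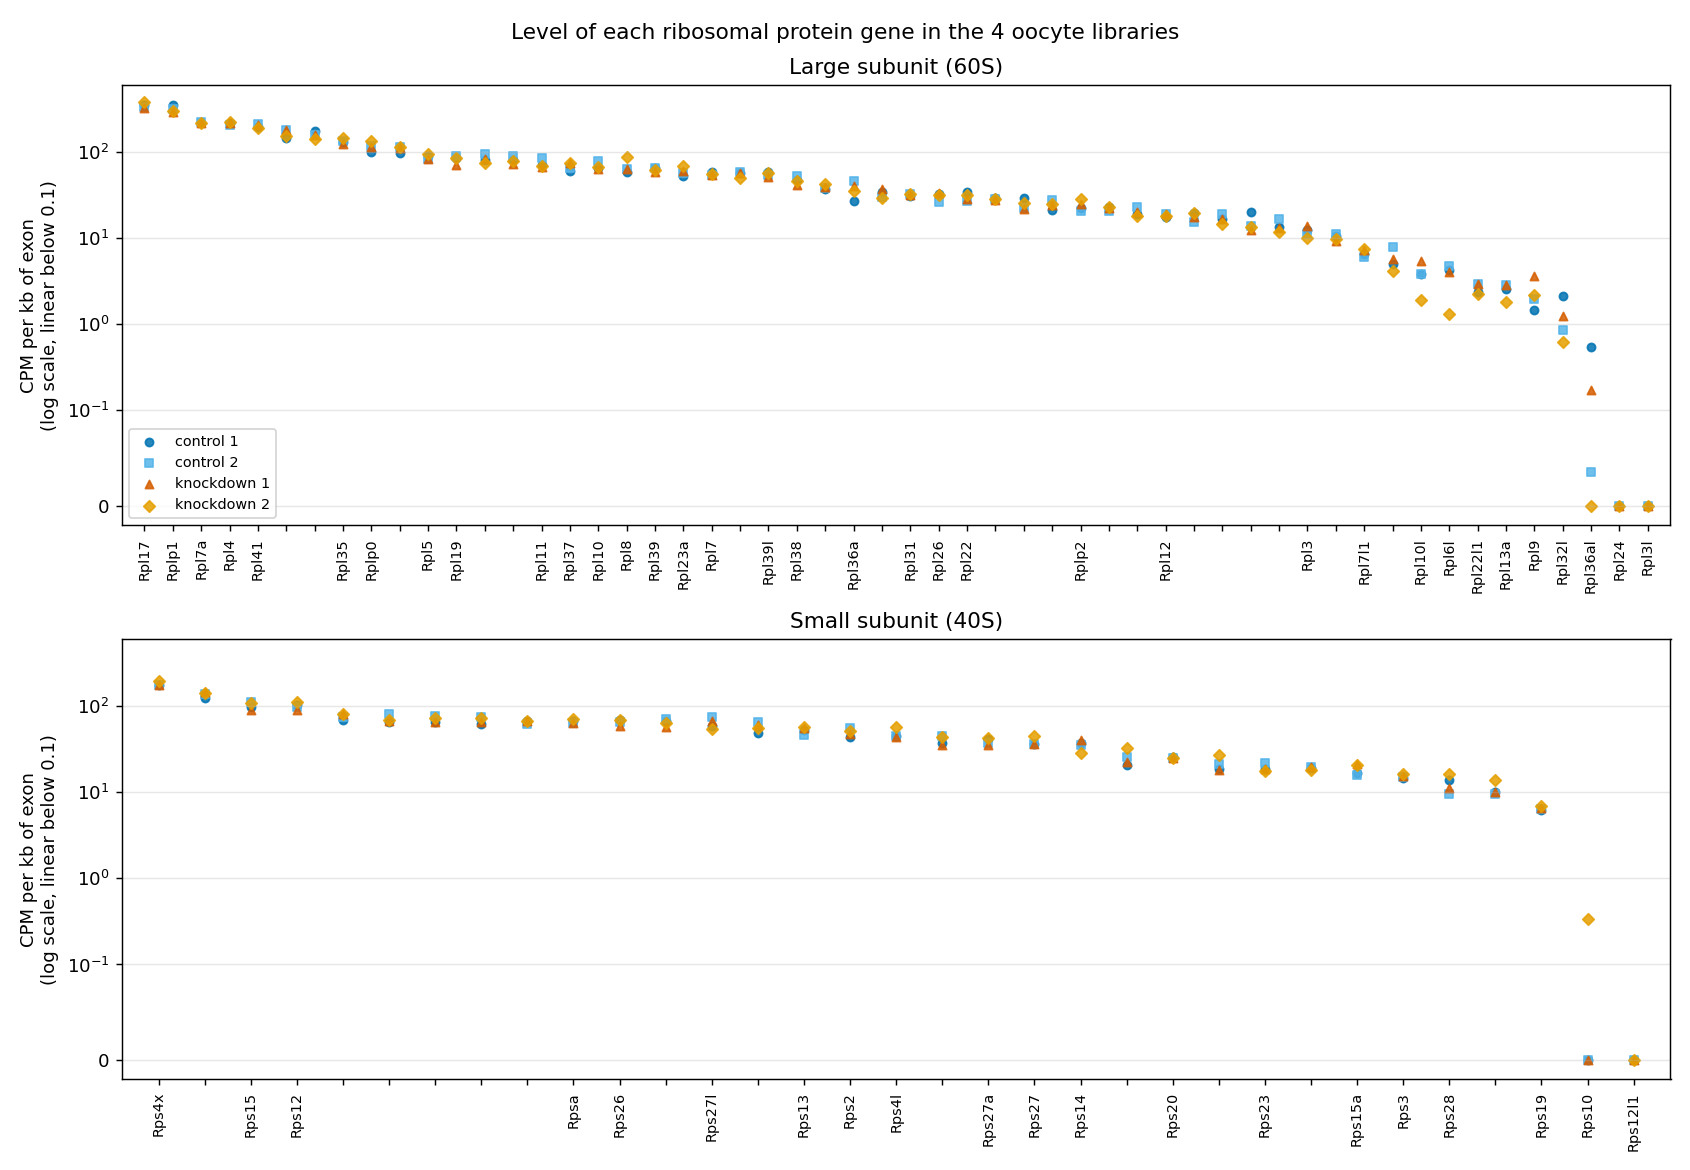
CPM per kilobase of exon for each of the 87 ribosomal protein genes, ordered by mean level, with 1 point per library and names for members described in the text; the axis is logarithmic and becomes linear below 0.1. The mean of 73 members is at least 10 CPM per kb, and Rpl36al, Rps10, Rpl24, Rpl3l and Rps12l1 lie at or near 0.

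Although each ribosome needs them, 2 coding members of the standard ribosome were almost without counts. Rpl24, of the intersubunit face of the 60S, had 0 counts in all 4 libraries. Rps10, of the 40S head, had 0 counts in both controls and in knockdown replicate 1, and 28 in knockdown replicate 2. A count of 0 allows a level of up to 0.0663 to 0.0838 CPM, taking 3 counts per library as the limit. Rpl36al, a copy of Rpl36a, had 33 and 2 counts in control oocytes and 10 and 0 after knockdown. Rpl3l, the muscle form of Rpl3, and the pseudogene Rps12l1 had 0 in all 4.

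In 3 of these 5 genes, Rps10, Rpl24 and Rpl36al, over 50% of the bases of the principal transcript lie in exons of another gene on the same strand. Over all annotated exons, overlap on either strand was lower, at 28.7%, 47.0% and 24.5%. For the principal transcript of Rps10, 91.6% of the bases also lie in exons of RPS10-NUDT3 on the same strand. For Rpl24 the figure was 71.5%, with Gm28037, and for Rpl36al it was 63.1%, with Gm49383. The only other member above 50% was Rpl13a, at 59.3%, and it had 2.50 ± 0.483 CPM per kb (SD, n = 4 libraries). Gm28037 and Gm49383 themselves had 0 counts in all 4 libraries.

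Overlap with exons on the opposite strand was found at high and at low levels. Rpl35, at the mouth of the exit tunnel, shares 68.3% of its principal transcript with antisense exons and had 133.0 ± 8.45 CPM per kb (SD, n = 4 libraries). Rpl23a shares 55.4% in this way and had 59.9 ± 7.14. Rpl5 shares 46.6% and had 86.99 ± 6.27. Rpl22l1 shares 28.8% and had 2.64 ± 0.383, and Rps12l1, with 100%, was at 0. The sources used here do not say how reads in 2 genes at once were counted or whether strand was used, and the part of the overlap in these levels was not tested. The values of Rpl24, Rps10, Rpl36al and Rpl13a are therefore uncertain as measures of the messages.

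Ribosomal protein genes also have many processed pseudogenes, so their sequence is often not unique. Of the 50-nucleotide stretches of each principal transcript, the share that recurs in transcripts of other genes ran from 0%, as for Rpl39l and Rpl3l, to 98.6% for Rps27 among coding members. Rpl7a shared stretches with 123 other genes, 120 of them pseudogenes. Over the 84 members with a count, level per kb and this share had a Spearman rho of -0.05, a description across genes that share their libraries. The 7 members with 90% or more shared had a median of 68.6 CPM per kb, and the 14 under 25% a median of 38.8. Rpl9, of the 60S, had 86.7% shared and between 203 and 478 counts.

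The 305 entries named as ribosomal protein pseudogenes held few counts. Those of members took 0.0116% and 0.0109% of counts in control oocytes and 0.0111% and 0.00932% after knockdown, against about 0.8% for the members. Any count was found in 119 of the 304 pseudogenes of members. Of all 305, 27 were tested and 0 were called. The most abundant was Rps2-ps10, with 52.4 ± 0.677 CPM (control) and 54.5 ± 3.43 CPM (knockdown; SD of 2 libraries each). Next came Rpl19-ps3, with 18.8 and 22.3 CPM in control oocytes and 15.99 and 9.33 CPM after knockdown. Its log2 fold change was -0.66, with an adjusted p of 0.835 by edgeR.

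**Figure D2:**
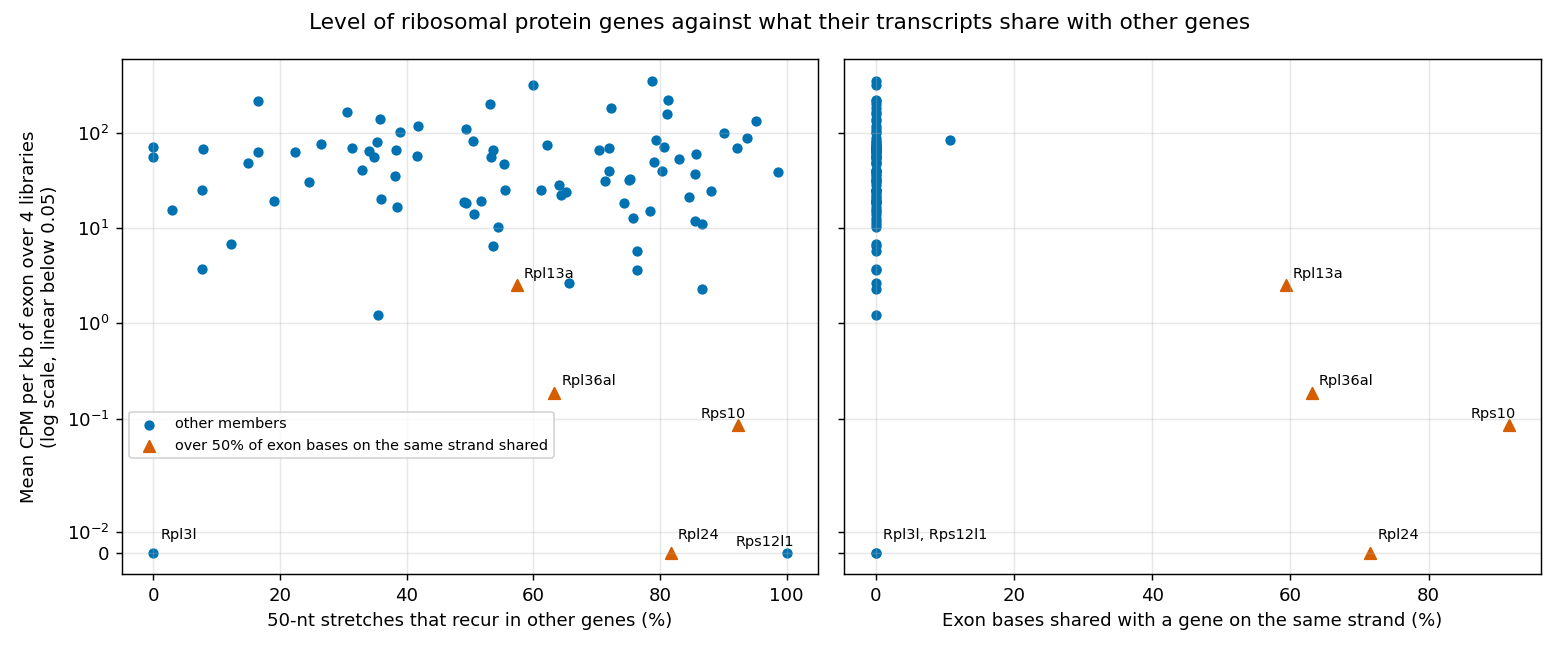
Mean level of the 87 members over 4 libraries (CPM per kilobase of exon, logarithmic above 0.05) against the percent of 50-nucleotide stretches that recur in other genes (left) and the percent of principal transcript bases in exons of a gene on the same strand (right). Triangles mark the 4 members over 50% on the right, which reach at most 2.50 CPM per kb, while on the left the Spearman rho over the 84 members with a count is -0.05.

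None of the ribosomal protein genes passed edgeR's test between knockdown and control. Of 87 members, 82 had a count in every library and these were the members tested; 0 were called at an adjusted p under 0.05, where 0.0063% of all tested genes were. At an unadjusted p under 0.05, edgeR listed 2 members higher (Rps15a and Rpl37) and 0 lower, beside 5.51% of all genes, 2.94% higher and 2.57% lower. DESeq2 called 1 member, Rps15a, where it called 1.77% of genes, and limma-voom called 0, with 2 members at an unadjusted p under 0.05 beside 4.71% of genes. The median log2 fold change was 0.00 over the tested members, with 41 above 0 and 41 below, and 0.00 over all tested genes. It was 0.02 for the 31 tested small subunit members and -0.04 for the 51 of the large subunit.

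Both knockdown libraries lay above both controls for 14 of the 82 tested members, where 18.0% of all tested genes did. They lay below both for 15, where 16.8% did. In either direction 34.9% of all tested genes did. Among the 76 tested members over 10 CPM, 13 were higher and 14 lower without overlap, beside 17.6% and 17.9% of genes over 10 CPM (35.5% in either direction). The members thus separated about as often as genes in general. The difference between group means exceeded the gap between replicates, in both groups, for 16 members and was smaller than both gaps for 37. These counts, and the median gaps that follow, were taken over the tested members only. They cannot set the members apart from genes in general. The median gap was 0.16 log2 units between the controls and 0.15 between the knockdowns, against 0.11 between the groups. For 74 of the 82 the 95% interval of the log2 fold change excluded a 2-fold change in either direction, as it did for 46.7% of all tested genes. Among genes over 10 CPM, it did so for 74 of 76 members and for 87.0% of all.

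**Figure D3:**
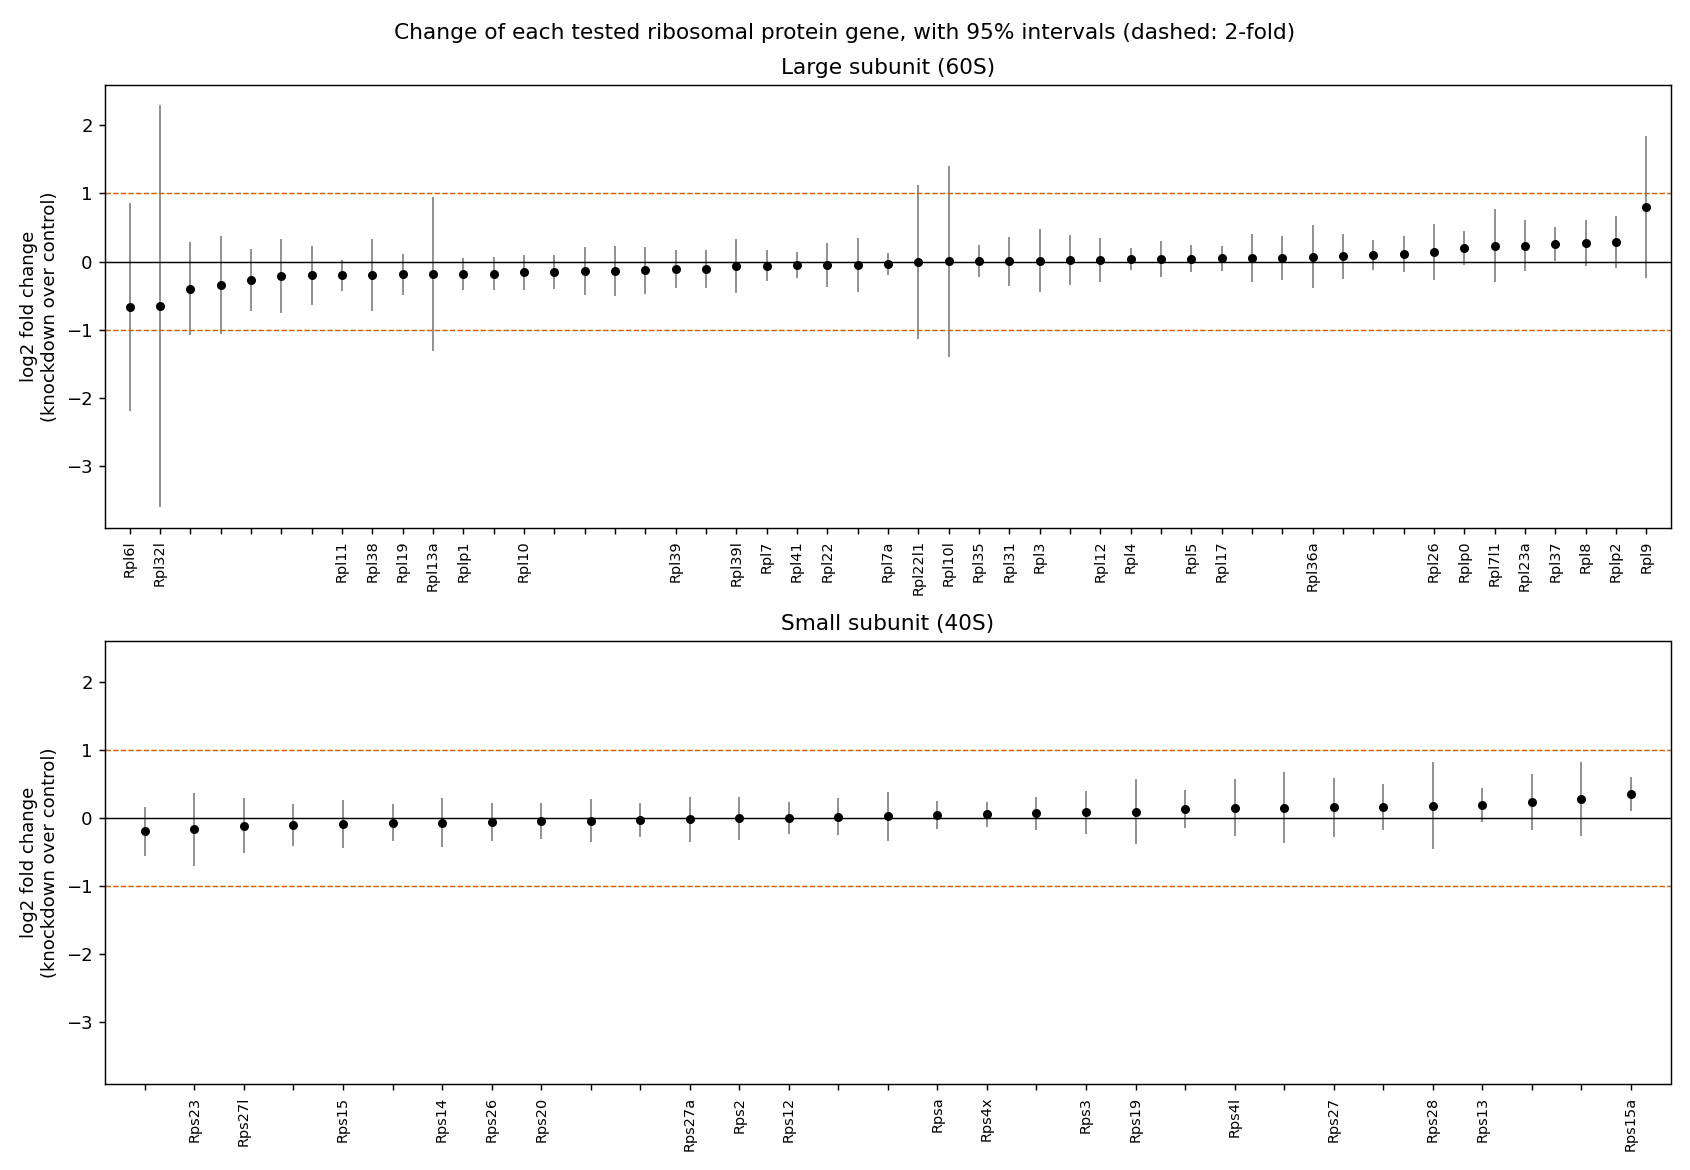
Log2 fold change of the 82 tested ribosomal protein genes, knockdown over control, by edgeR (points) with 95% intervals (bars) and names for members described in the text; dashed lines mark a 2-fold change. Estimates run from -0.66 for Rpl6l to 0.80 for Rpl9, and the wide bars belong to members with few counts.

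Rps15a, a protein of the 40S body, had the smallest p of all members. Its gene lies on the minus strand of chromosome 7 (mm10), between positions 118104372 and 118116188, and its start site is shown above. It had 103.9 and 100.3 CPM in control oocytes, and 132.5 and 129.3 CPM after knockdown. The replicates lay close together and the groups were apart. The log2 fold change, 0.36 with an SE of 0.12, had a 95% interval of 0.11 to 0.61. The unadjusted p was 0.00866 and the adjusted p 0.835 by edgeR. By DESeq2 the adjusted p was 0.00990, and over all alternatives it ran from that value to 0.994, so the call rests on the tool. Of its stretches, 49.1% recur in other genes.

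Rpl37, a small zinc-binding protein of the 60S, was the other member under 0.05. It had 100.9 and 109.9 CPM in control oocytes, and 126.9 and 124.8 CPM after knockdown, again without overlap. Its log2 fold change was 0.26 (SE 0.12), with an unadjusted p of 0.0463 and an adjusted p of 0.835 by edgeR. The next by p were Rpl11, Rplp0, Rpl8, Rplp1, Rpl9, Rps13 and Rplp2. Their adjusted p by edgeR ran from 0.835 for Rpl11 to 0.851 for Rplp2. Rpl8, of the peptidyl transferase region, had 80.5 and 86.4 CPM in control oocytes and 85.2 and 118.4 after knockdown, so only knockdown replicate 2 stood high. Rps13 had 141.4 and 123.1 against 149.6 and 152.9 CPM. Rpl9 had the highest log2 fold change, 0.80 (95% interval -0.24 to 1.84), on 4.49 and 6.08 against 11.2 and 6.68 CPM. Without knockdown replicate 1 it was 0.35, below the 0.51 of Rpl8 and the 0.39 of Rplp2. The log2 fold change of Rpl8 was 0.27, and 0.03 without knockdown replicate 2. That of Rps13 was 0.19, and 0.08 without control replicate 2 and 0.31 without control replicate 1.

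The stalk of the large subunit, which recruits the translation factors, is built by Rplp0, Rplp1 and Rplp2 on a base with Rpl12. Its parts did not share a direction. Rplp0, the scaffold, had 164.6 and 195.2 CPM in control oocytes and 190.0 and 224.4 CPM after knockdown, which overlapped. Rplp1 had 173.5 and 158.2 CPM against 145.5 and 147.9, lower in both knockdowns. Rplp2, its partner in the dimer, had 46.2 and 42.8 CPM against 51.1 and 58.3, higher in both. Their log2 fold changes were 0.20, -0.18 and 0.29, and 0.03 for Rpl12, all without a call. For Rplp0 it ran from 0.08 without knockdown replicate 2 and 0.09 without control replicate 1 to 0.31 without control replicate 2 and 0.32 without knockdown replicate 1. For Rplp1 it was -0.10 without control replicate 1. Per kb, Rplp1 stood at 313.2 and Rplp2 at 23.9, although the proteins pair one to one. On the length of the principal transcript they stood at 313.2 and 117.8, so much of that gap follows the length used.

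Rpl5 and Rpl11 bind the 5S ribosomal RNA, and outside the ribosome they restrain MDM2, the ligase that degrades p53. Rpl11 had 192.2 and 231.5 CPM in control oocytes and 182.4 and 185.6 CPM after knockdown. Its log2 fold change was -0.20 (95% interval -0.43 to 0.03), with -0.08 when control replicate 2 was left out and -0.32 when control replicate 1 was. Rpl5 had 348.3 and 321.6 CPM against 321.5 and 372.7, with a log2 fold change of 0.05. The groups were apart for Rpl11, by less than the gap between its controls, and overlapped for Rpl5.

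Around the mouth of the exit tunnel lie Rpl19, Rpl23a, Rpl26, Rpl31, Rpl35 and Rpl39, where chaperones and the signal recognition particle dock. The 6 had log2 fold changes between -0.19 and 0.24, with a median of 0.00 and 0 called. Rpl23a, a docking site of the signal recognition particle, had 44.6 and 48.4 CPM in control oocytes and 51.1 and 58.9 CPM after knockdown. Rpl19 had 86.8 and 92.99 CPM against 73.0 and 85.9. Rpl31 lay between 51.8 and 54.2 CPM in all 4 libraries, the tightest of this group. In the tunnel wall, Rpl4 had a log2 fold change of 0.04 and Rpl17 of 0.05.

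In the small subunit, Rps2, Rps3, Rps15 and Rps23 lie where the message enters and is decoded. Their log2 fold changes were -0.01, 0.09, -0.09 and -0.17, with 0 called. Rps3, which also acts in DNA repair, had 66.1 and 68.1 CPM in control oocytes and 69.7 and 72.98 CPM after knockdown, a small shift without overlap. Rps14, Rps26, Rps28 and Rpsa sit where the message leaves, and had log2 fold changes of -0.07, -0.06, 0.18 and 0.04. Rps28 was the most uneven of them, with 24.1 and 16.6 CPM in control oocytes and 19.3 and 27.9 CPM after knockdown. In the head, Rps12 and the ubiquitin fusion Rps27a had log2 fold changes of 0.00 and -0.02, and Rps10 was not tested.

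Genes mutated in human Diamond-Blackfan anaemia, an inherited failure of red cell production, numbered 9 in the list used, among them Rps19, Rps26, Rpl5 and Rpl11. Of the 8 tested, 3 were above 0 and 5 below, with a median of -0.05. Rps19, the gene most often mutated in that disease, had 28.7 and 30.0 CPM in control oocytes and 30.3 and 32.5 CPM after knockdown. Rpl38, whose loss in mice gives skeletal patterning defects, had 25.5 and 28.8 CPM against 22.5 and 24.9, with a log2 fold change of -0.20 (SE 0.24). Rps20, for which mouse mutations darken the skin, was even, between 100.4 and 104.2 CPM in the 4 libraries.

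Some ribosomal proteins have a second gene that gives a variant of the protein in particular tissues. Rpl39l and Rpl10l are known in mouse from spermatogenic cells, Rpl3l from heart and skeletal muscle, and Rps27l as a target of p53. In these oocytes Rpl39l stood nearly level with Rpl39. Rpl39l had 58.3 and 53.7 CPM per kb in control oocytes and 51.0 and 57.0 after knockdown, and Rpl39 had 65.5 and 64.6 against 59.2 and 62.1. Rpl39l made up between 45.4% and 47.9% of the pair. On the length of the principal transcripts its mean share was 36.1%. The 2 genes can be told apart by sequence: 0% of the stretches of Rpl39l recur in another gene, and 16.5% of those of Rpl39 do. Counts and stretches also cover bases outside the coding sequence, and the principal transcripts have 612 (Rpl39) and 550 (Rpl39l) nucleotides. Their coding sequences in GENCODE vM21 (GRCm38), without the stop codon, are shown with capitals at the 23 of 153 positions that differ.
Rpl39 on chromosome X, minus strand: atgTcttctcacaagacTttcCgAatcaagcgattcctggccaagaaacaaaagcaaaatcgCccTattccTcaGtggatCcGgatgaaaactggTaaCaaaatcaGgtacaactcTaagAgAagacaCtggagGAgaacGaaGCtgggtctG
Rpl39l on chromosome 16, plus strand: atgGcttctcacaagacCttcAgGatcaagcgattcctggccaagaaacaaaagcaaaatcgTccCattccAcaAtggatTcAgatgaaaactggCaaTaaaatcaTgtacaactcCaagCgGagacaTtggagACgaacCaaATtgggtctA

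Rps27l stood close to Rps27. It had 58.1 and 73.7 CPM per kb in control oocytes and 66.3 and 54.3 after knockdown, where Rps27 had 36.4 and 35.9 against 36.2 and 45.1. Its share of the pair lay between 54.6% and 67.3%, and its mean share was 62.0% per exon length but 47.1% per principal transcript, so which of them was higher depends on the length. Of the stretches of Rps27, 98.6% recur in other genes, against 22.4% for Rps27l, and the part of this in the ratio was not tested. The coding sequences have the same length of 252 nucleotides and differ at 60 positions, in capitals below.
Rps27 on chromosome 3, minus strand: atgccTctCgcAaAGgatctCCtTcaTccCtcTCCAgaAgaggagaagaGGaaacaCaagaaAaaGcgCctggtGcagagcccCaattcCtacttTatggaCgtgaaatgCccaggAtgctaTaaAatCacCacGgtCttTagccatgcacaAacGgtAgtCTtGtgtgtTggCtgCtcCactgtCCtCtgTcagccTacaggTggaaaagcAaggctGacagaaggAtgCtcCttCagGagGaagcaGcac
Rps27l on chromosome 9, plus strand: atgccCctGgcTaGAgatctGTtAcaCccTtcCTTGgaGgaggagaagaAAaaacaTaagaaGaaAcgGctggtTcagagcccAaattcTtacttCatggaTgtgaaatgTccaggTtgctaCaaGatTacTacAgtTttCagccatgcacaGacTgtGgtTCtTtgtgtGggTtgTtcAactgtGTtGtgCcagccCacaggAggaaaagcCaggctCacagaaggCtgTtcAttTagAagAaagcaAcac

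The other copies were lower than their parents. Rps4l, which the annotation calls a transcribed processed pseudogene, made up between 19.9% and 22.8% of its pair with Rps4x. Rpl7l1, a distant relative of Rpl7 with 50.1% identical aligned coding positions, made up between 9.86% and 11.96%. Rpl22l1 reached between 6.50% and 9.94% of its pair with Rpl22, and Rpl10l between 2.80% and 7.90% of its pair with Rpl10. Rpl36al stayed at or under 1.95%, and Rpl3l was at 0. Of the copies that were tested, 0 were called. Rps27l and Rpl39l had log2 fold changes of -0.11 and -0.06, Rps4l of 0.15 and Rpl7l1 of 0.23. For Rpl7l1 both knockdowns (25.1 and 26.4 CPM) lay above both controls (22.7 and 20.8 CPM).

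**Figure D4:**
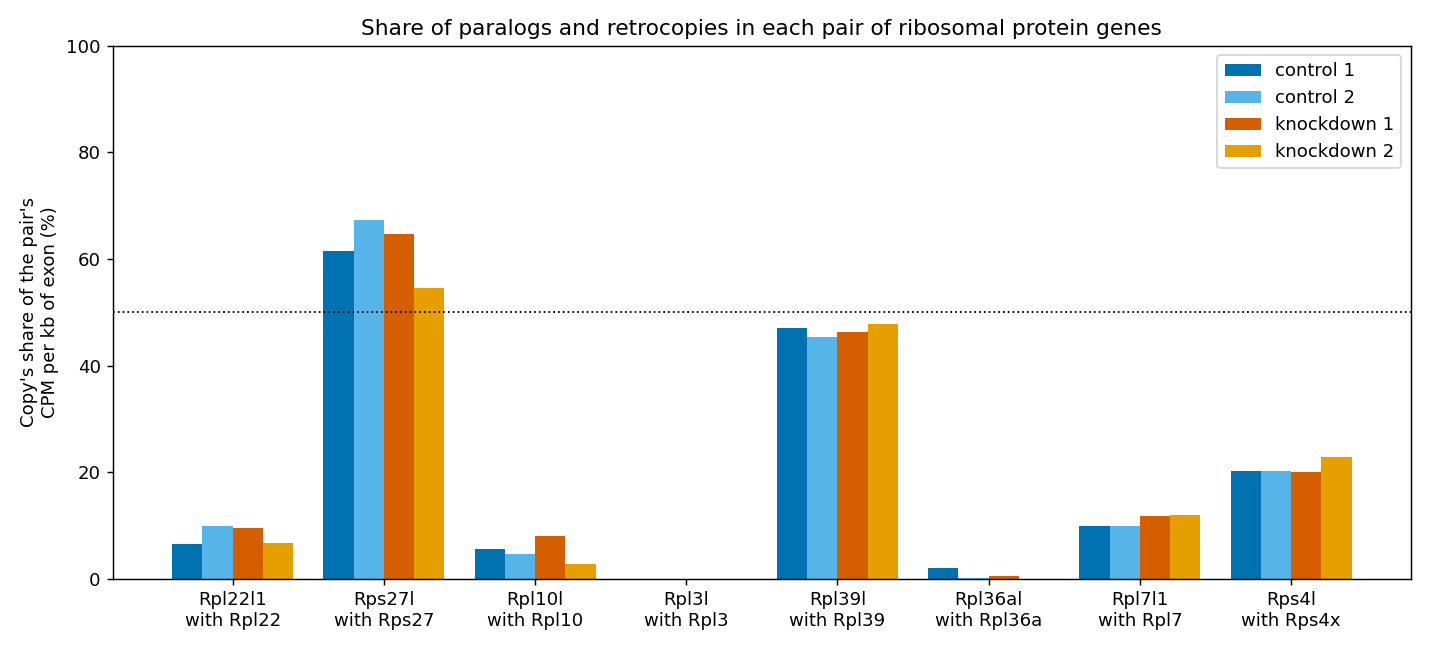
Share of each copy in the summed CPM per kilobase of exon of its pair, in percent, with 1 bar per library; the dotted line marks equal levels. Rps27l lies above the line in all 4 libraries and Rpl39l just under it, while the other copies stay under 23%.

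The lowest members with a count in every library were Rpl32l, Rpl9, Rpl13a, Rpl22l1 and Rpl6l, between 1.21 and 3.59 CPM per kb. The pseudogene Rpl6l had 167 and 168 counts in control oocytes and 152 and 41 after knockdown. Its log2 fold change was -0.66, and its 95% interval, -2.19 to 0.86, did not exclude a 2-fold fall. Rpl32l had 38 and 14 counts against 21 and 9. Rpl22l1 had 212 and 242 counts against 251 and 161, with a log2 fold change of -0.01, and Rpl13a had 243 and 245 against 255 and 137. In 4 of these 5, Rpl6l, Rpl32l, Rpl13a and Rpl22l1, knockdown replicate 2 held the lowest CPM of the 4 libraries.

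Ribosomal proteins that the name rule leaves out gave similar values. Fau, which encodes a ubiquitin-like fusion with Rps30, had 98.8 ± 1.30 CPM in control oocytes and 91.9 ± 5.63 CPM after knockdown (SD of 2 libraries each). Rack1, a signalling scaffold on the 40S head, had 98.8 ± 6.17 and 85.97 ± 4.15 CPM, with a log2 fold change of -0.20 and an adjusted p of 0.865 by edgeR. Rps3a1 had 52.9 ± 6.68 and 57.1 ± 3.35 CPM. None of these 3 was called.

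In the wider pathway edgeR and limma-voom called 0 genes. DESeq2 called 1, Spata5, where it called 1.77% of all genes with an adjusted p. At an unadjusted p under 0.05, edgeR listed 2.94% of all tested genes as higher and 2.57% as lower. In the TOP list it was 1 of 19 tested genes (lower). In the mTOR and LARP1 list it was 1 of 26 and in the ribosome biogenesis list 3 of 109, all higher. Of 19 messages listed as TOP messages outside the name rule, these genes included, 9 were above 0 and 10 below, with a median log2 fold change of 0.00. The smallest p among them was that of Hnrnpa1, a splicing regulator, with 155.7 ± 8.79 CPM (control) and 130.8 ± 11.9 CPM (knockdown; SD of 2 libraries each; log2 fold change -0.26, adjusted p 0.835 by edgeR). The mTOR and LARP1 list had 26 tested genes, 17 above 0 and 9 below, with a median of 0.05. Lamtor1, which anchors mTORC1 at the lysosome, had 101.5 ± 4.32 and 124.4 ± 7.43 CPM. The ribosome biogenesis list had 109 tested genes, 51 above 0 and 58 below, with a median of -0.01. Spata5, a factor that releases assembly proteins from the maturing 60S, had 98.9 ± 5.20 and 126.1 ± 7.35 CPM, with an adjusted p of 0.835 by edgeR and 0.0242 by DESeq2.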

How the data were processed

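Poly(A)-selected RNA of 4 libraries was sequenced, per the labels' protocols, and the titles of the samples gave their group and replicate number. The deposited file gives whole-number read counts for each gene and library beside the gene's exon length in nucleotides, per the file headers. The build is mm10, and DESeq2 1.28.1, featureCounts 2.0.0, STAR 2.7.5b and Trim Galore 0.6.4 are listed in the submitters' processing notes, without roles. The sources used here do not state whether strand was used or how reads with several alignments were treated. The positions of all 87 members were the same in GENCODE vM21 (GRCm38).

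Counts were tested in R 4.3.3 with edgeR 4.0.16 (filterByExpr, a minimum count of 10, TMM factors, glmQLFit with robust estimation and the non-legacy fit, glmQLFTest, two-sided, Benjamini-Hochberg over 15868 genes, threshold 0.05). Alternatives were other scaling factors, other filters, the legacy fit, DESeq2 1.42.0, limma-voom (limma 3.58.1), a replicate block, the omission of each library in turn and summing pseudogenes into their parents. The fit was tested on simulated counts. An exact permutation test of 2 against 2 libraries cannot reach 0.05, so none is given. The labels do not tell whether the replicates are from separate animals, so p-values measure the spread between these libraries, and limits from a count of 0 cover counting error only. A few genes that the rule for named genes or the lists hold are not reported here. Named members were otherwise the 10 with the smallest p, the highest and lowest levels, those at 0, the listed roles and the copy pairs. Members, lists and tests were chosen with earlier results of these data known. Stretch sharing, exon overlap, the start-site search and the remarks on single members outside the rule were added or chosen after values were seen.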

Additional observations from a re-analysis of the deposited data

How the results depend on the processing

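The number of ribosomal protein genes called was 0 under every edgeR alternative and with limma-voom, and 1 (Rps15a) with DESeq2. The number of all genes called was 1 in the main test, 8 with genes required to reach 1 CPM in both libraries of either group, 297 with DESeq2, 0 with limma-voom (747 at an unadjusted p under 0.05) and between 1 and 2 when a library was left out. Leaving out knockdown replicate 1 gave the 2. Parp12 had a log2 fold change of -7.73 with limma-voom and was not called there. The adjusted p of Rps15a ran from 0.00990 to 0.994 over all alternatives, and the adjusted p of Parp12 from 2.32e-47 to 0.280. The causes were not tested.

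When a library was left out, the member median ran from -0.039 to 0.028, that of the small subunit from -0.036 (without knockdown replicate 2) to 0.12 (without knockdown replicate 1), and that of the large subunit from -0.051 to -0.007. With the 1 CPM filter the large subunit median was -0.023. The members' share of counts was 0.686% in the controls and 0.691% in the knockdowns without the 3 most abundant members. It was 0.725% and 0.731% without those with 90% or more shared stretches, an alternative chosen after seeing the data, as were the legacy fit and the principal transcript length. Both shares fall by construction. Of the 10 highest members per length, 5 remained by CPM without length. With the replicate number as a block, 0 members and 1 gene were called, and no call changed. Same-numbered libraries deviated together with a correlation of 0.00802 over all tested genes. The labels do not say whether they were collected or prepared together. With 2 libraries per group this value cannot decide that. Depth limits members under 10 CPM: of the 6 tested there, no 95% interval lay within a 2-fold change in both directions.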
